A study of Mus musculus with 28 samples.

Results

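DNA replication and S phase genes were followed in mouse regulatory T cells (Tregs), the CD4 T cells that express Foxp3 and restrain other immune cells. The 53 genes were taken from a list of gene symbols covering the steps of replication, and no measured value decided membership. The list was chosen with earlier results of these data known. Of the 53 genes, 46 were in the deposited table of 13103 genes, and all 46 were among the 12509 genes tested. Mcm7, Gins2, Pola2, Pcna, Rfc2, Rfc5 and Chaf1a are named here only, without values.

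A cell copies its DNA once per division. Origins are first licensed, when the origin recognition complex (ORC), Cdc6 and Cdt1 load the ring of Mcm2 to Mcm7 onto DNA; the ring is then turned into a running helicase by Cdc7 with Dbf4, Cdc45 and the GINS complex, and polymerases follow it. Many of these genes are transcribed at the passage from G1 into S phase under the E2F family, so their mRNA is scarce in resting lymphocytes and abundant in dividing ones.

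The cells came from Foxp3-GFP mice, in which green fluorescent protein marks Foxp3-expressing cells, and every mouse carried a B16 melanoma from 500000 cells placed in the skin 7 to 10 days earlier. No group without a tumor was analysed here, so the spleens are those of tumor-bearing mice, and the labels give no age. GFP-positive cells stained for CD45, CD3 and CD4 were sorted by surface OX40, a costimulatory receptor encoded by Tnfrsf4, into a high and a low gate, labelled OX40plus and OX40minus. The 4 groups were tumor OX40plus and tumor OX40minus (4 mice each) and spleen OX40plus and spleen OX40minus (3 mice each), and the titles give the same mouse numbers to the 2 gates of a tissue.

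Levels are in CPM, counts scaled to one library total, with the SD over mice, and are not corrected for gene length, so they are compared between samples of a gene and never between genes. Differences are log2 fold changes with their standard error (SE) and a Benjamini-Hochberg adjusted p from limma over the 12509 genes, and a gene was called at an adjusted p under 0.05. Depth was 22.4 to 29.6 M estimated counts per sample, and the lowest estimated count of any replication gene in any sample was 51. The OX40 gate was visible in its own gene: Tnfrsf4 stood at 253 ± 40.9 CPM in spleen OX40minus, 704 ± 111 in spleen OX40plus, 1950 ± 152 in tumor OX40minus and 3357 ± 203 in tumor OX40plus. Foxp3 was detected in each sample (23.3 to 130 CPM). The highest was spleen OX40plus mouse 3, with 32.1 and 31.8 CPM in mice 1 and 2. The 6 Treg markers (Foxp3, Il2ra, Ctla4, Ikzf2, Cd4 and Cd3e) summed to 3136 to 4125 CPM in spleens and 7018 to 8264 in tumors. In OX40plus, 3 of 6 were called higher in tumors, led by Ctla4 (2.31), and Cd4 lower (-0.64). In OX40minus, 2 of 6 were called higher, led by Ctla4 (2.99). Between tumor gates, Il2ra was called higher in OX40plus (0.62) and Cd4 lower (-0.68).

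Replication genes were higher in the OX40plus gate of both tissues and higher in tumors than in spleens. In tumors, 44 of 46 were called higher in OX40plus and 0 lower (median log2 fold change 1.06). Across all tested genes 18.6% were called higher and 20.0% lower in that comparison, with a median of -0.07. In spleens, 34 of 46 were called higher and 0 lower (median 0.79), against 4.39% higher and 3.60% lower of all genes (median 0.01). All 34 were also called in tumors. With limma, 0 of the 46 were lower at an unadjusted p under 0.05 in either tissue, and limma-voom also called 0 lower. A fold change of at least 2 was reached by 29 genes in tumors and by 8 in spleens. The share of all genes reaching it was not computed.

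The separation between gates was complete for most of these genes. Every tumor OX40plus sample lay above every tumor OX40minus sample for 43 of 46, a pattern shown by 16.7% of all tested genes, and 44 were higher in OX40plus in each of the 4 mice. In spleens the corresponding counts were 40 of 46, against 17.4% of all genes, and 42 higher in each of the 3 mice. Both shares are for full separation. The share of all genes higher in every mouse was not computed, so the counts by mouse have no background. In bulk RNA, more cells in S phase and more replication mRNA per cell cannot be told apart.

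The summed level of the 46 genes was 2024, 2032 and 1788 CPM in the spleen OX40minus samples of mice 1 to 3. It was 2844, 3296 and 2775 CPM in their spleen OX40plus samples. Tumor OX40minus samples of mice 1 to 4 summed to 3874, 4334, 3947 and 3862 CPM, and tumor OX40plus samples to 7482, 8302, 8088 and 7821 CPM. The 4 groups did not overlap, and the tumor OX40plus mean of 7924 ± 354 CPM (SD, n = 4) compares with 1948 ± 139 CPM (n = 3) in spleen OX40minus. A sum gives most weight to abundant transcripts such as those of the Mcm genes.

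**Figure D1:**
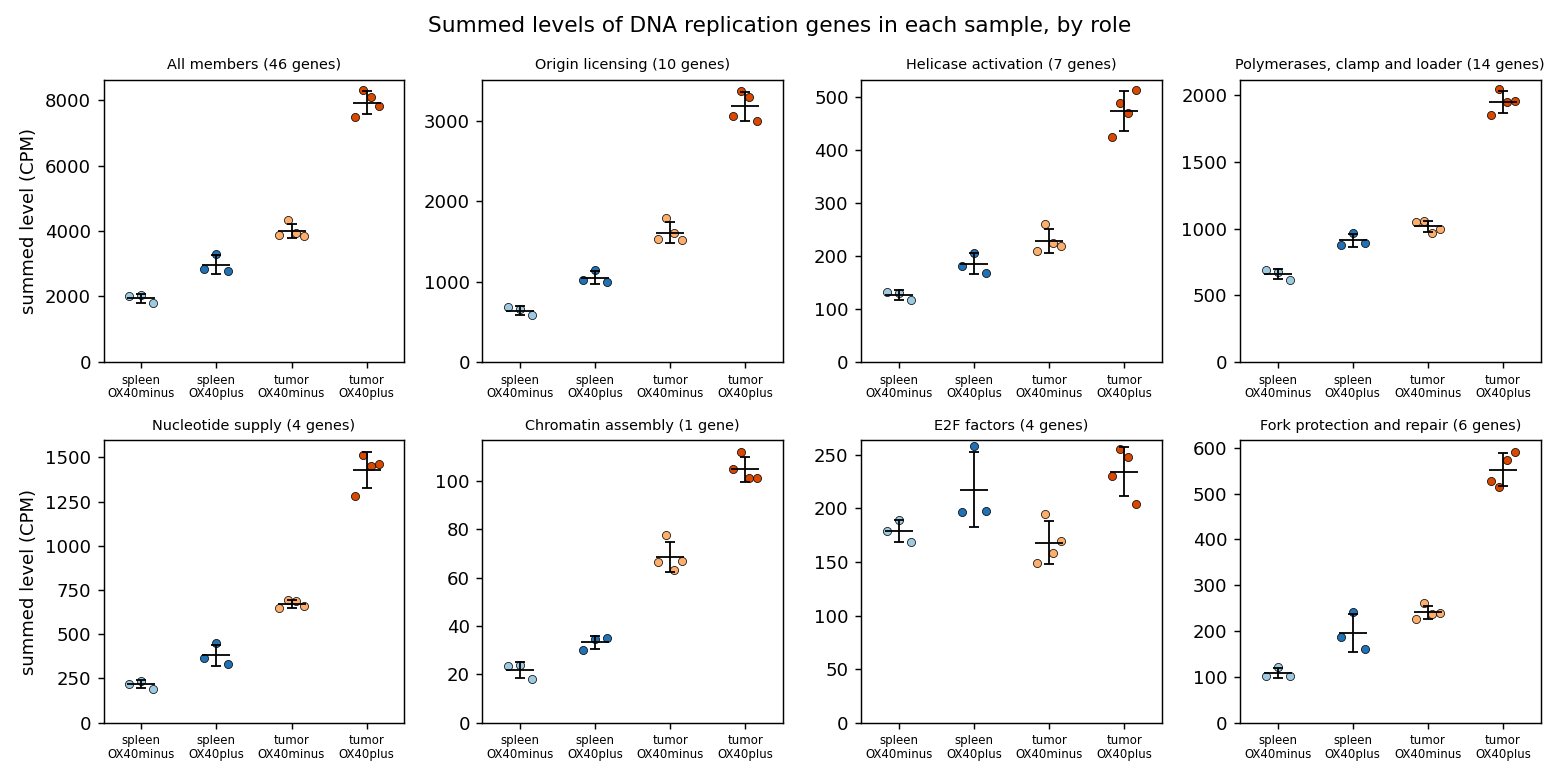
Summed level in CPM (vertical axes, from 0) of all 46 replication genes and of each role, for the 4 groups on the horizontal axes; points are mice, long bars are means and whiskers are SDs. The panel of all genes rises from 1948 CPM in spleen OX40minus to 7924 CPM in tumor OX40plus with no overlap, while the E2F factors overlap between groups.

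Markers of other cells differed between the gates as well. Of 9 macrophage markers in the table, 8 were called lower in OX40plus in tumors and 8 in spleens. Their summed level was 739 to 942 CPM in spleen OX40minus and 82.0 to 197 in spleen OX40plus, and 221 to 333 in tumor OX40minus against 51.9 to 65.7 in tumor OX40plus. Between the gates of each tissue they were lower where the replication genes were higher, and their part in the result was not tested. Between tissues this did not always hold: both sums were higher in tumor OX40minus than in spleen OX40plus. With limma and with limma-voom, 0 of 6 melanoma markers were called between gates in either tissue (at an unadjusted p under 0.05, 2 in tumors and 0 in spleens), with sums of 92.5 to 138 CPM in tumor OX40minus and 69.3 to 184 in tumor OX40plus. Natural killer cell markers summed to 0.185 to 6.99 CPM over the 14 samples, and 2 of 3 were called lower in tumor OX40plus. Of 5 dendritic cell markers, 3 were called lower in tumor OX40plus, with sums of 51.8 to 67.6 CPM in tumor OX40minus and 13.0 to 25.6 in tumor OX40plus. In spleens the dendritic cell sums were 43.1 to 49.0 CPM in OX40minus and 14.5 to 19.1 in OX40plus, again without overlap. However, limma called 0 of the 5 single markers between the spleen gates (median log2 fold change -0.38). The part of these markers in the result was not tested either. No defining marker of these lists was at 0 in every sample.

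**Figure D2:**
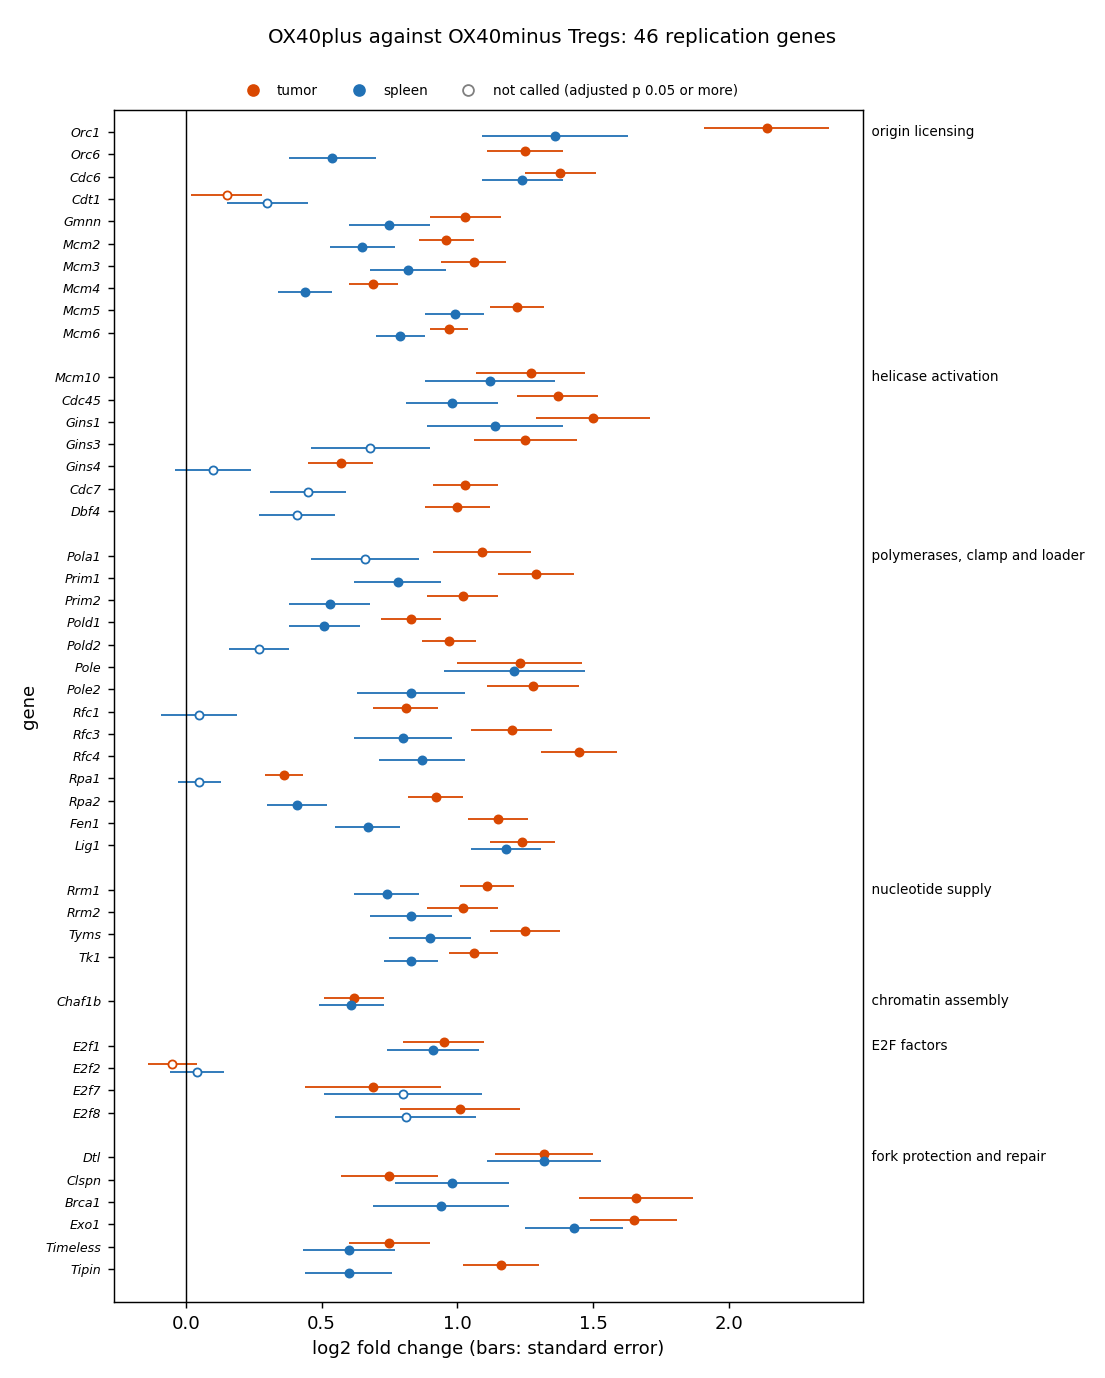
Log2 fold change of OX40plus over OX40minus (horizontal axis, bars are SEs) for the 46 genes by role, in tumors (orange) and spleens (blue); open points were not called. All tumor points except Cdt1 and E2f2 are filled and to the right of 0, and 12 spleen points are open.

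Promoters are shown because the genes moved together and E2F sites are a known feature of this class. RefSeq windows (GRCm38.p6, 250 bases before to 50 after the transcription start) were found for 38 of the 46 tested genes. They were searched on both strands for the E2F words TTTCCCGC, TTTCGCGC, TTTGCCGC and TTTGGCGC, which can overlap one another. At least 1 word was present for 16 genes (42.1%), compared with 4.43% of the 9962 tested genes that have a window and 2.60% of all 27025 genes with a window. The stretches below are the 160 bases before the RefSeq start of 5 genes whose words lie there. Each is read in the direction of transcription, with the words in capitals. They are Orc1 (chr4:108579294-108579453, plus strand), Cdc6 (chr11:98907991-98908150, plus), Mcm5 (chr8:75109349-75109508, plus), Mcm6 (chr1:128359706-128359865, minus) and Dtl (chr1:191575545-191575704, minus).
Orc1: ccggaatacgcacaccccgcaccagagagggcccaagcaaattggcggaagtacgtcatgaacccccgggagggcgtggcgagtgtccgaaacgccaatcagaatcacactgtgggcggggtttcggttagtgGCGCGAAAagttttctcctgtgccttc
Cdc6: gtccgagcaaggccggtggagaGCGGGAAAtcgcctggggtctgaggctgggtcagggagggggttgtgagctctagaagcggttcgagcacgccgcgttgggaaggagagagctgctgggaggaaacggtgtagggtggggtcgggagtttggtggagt
Mcm5: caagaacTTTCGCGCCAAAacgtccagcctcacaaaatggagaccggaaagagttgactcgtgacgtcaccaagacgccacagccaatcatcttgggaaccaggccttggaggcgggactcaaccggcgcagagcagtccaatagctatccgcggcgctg
Mcm6: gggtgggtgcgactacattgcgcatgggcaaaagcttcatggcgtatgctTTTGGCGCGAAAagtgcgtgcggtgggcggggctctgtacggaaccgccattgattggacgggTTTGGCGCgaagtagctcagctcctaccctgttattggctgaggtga
Dtl: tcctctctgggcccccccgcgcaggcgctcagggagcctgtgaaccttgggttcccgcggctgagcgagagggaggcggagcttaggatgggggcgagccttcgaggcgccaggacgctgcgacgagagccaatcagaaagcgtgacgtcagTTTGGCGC
Orc1, Cdc6 and Dtl have 1 match each, Mcm5 has 2 that overlap, and Mcm6 has 3, of which the first 2 overlap. The GENCODE annotation places the start of 2 of these genes further upstream. It begins Cdc6 at 98907801, so the whole Cdc6 stretch lies inside the gene as annotated there. It begins Orc1 at 108579423, within the stretch and before the word. Cdt1 and E2f2, the 2 genes not called between gates in tumors, each have a window with 1 match downstream of the RefSeq start. Another window of E2f2 holds 0 matches.

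For contrast, the word TTTGAA, the core of the CHR element known from mitotic gene promoters, was present for 23.7% of the 38 replication genes and 15% of the tested genes. Of 21 mitosis genes with a window, 71.4% had this word and 4.76% had an E2F word. These matches describe the letters of the windows and are not measured binding. Whether the words have a part in the differences was not tested.

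**Figure D3:**
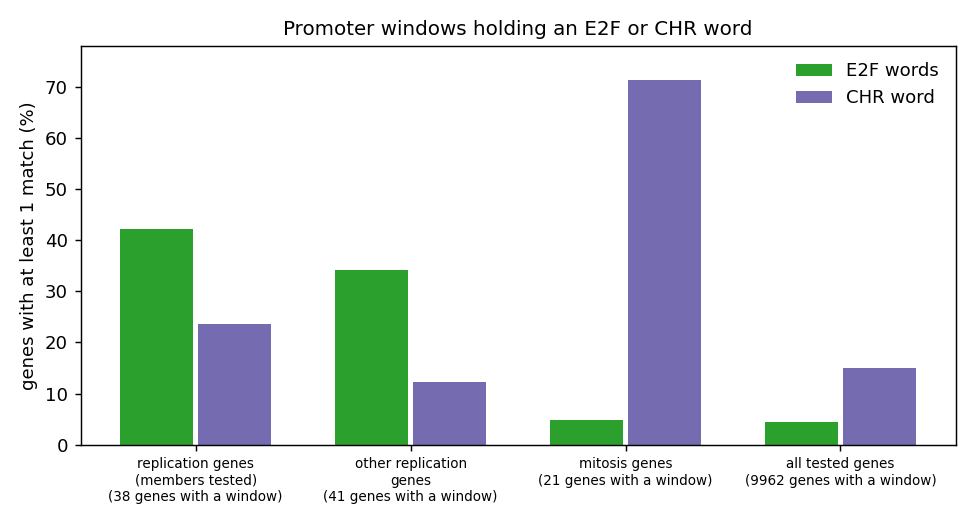
Share of genes (percent, vertical axis from 0) whose promoter window holds at least 1 E2F word (green) or the CHR word (purple), for 4 gene sets on the horizontal axis. E2F words are at 42.1% for the replication genes and 4.43% for all tested genes, and the CHR word is at 71.4% for the mitosis genes.

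Among the licensing genes, 9 of 10 rose with OX40 in tumors and the same count rose in spleens. Orc1, the largest subunit of the origin recognition complex, was at 5.73, 10.1, 10.5 and 8.08 CPM in tumor OX40minus and at 30.6, 44.0, 41.6 and 33.5 CPM in tumor OX40plus of mice 1 to 4. It was at 1.96, 3.15 and 2.35 CPM in spleen OX40minus and at 5.61, 6.98 and 6.19 CPM in spleen OX40plus. The gates did not overlap in either tissue. Its log2 fold change was 2.14 (SE 0.23, adjusted p = 4.07e-06) in tumors, the largest of the 46, and 1.36 (SE 0.27, adjusted p = 0.00411) in spleens. The spleen call was lost with limma-voom weights (adjusted p = 0.0502).

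Cdc6, the ATPase that joins ORC to load the helicase, was at 34.8, 30.9, 31.1 and 34.5 CPM in tumor OX40minus and 92.7, 91.0, 75.8 and 83.4 CPM in tumor OX40plus. In spleens it went from 9.89, 11.2 and 8.69 CPM to 23.1, 28.6 and 19.3 CPM. All OX40plus samples exceeded all OX40minus samples of their tissue, with log2 fold changes of 1.38 (SE 0.13, adjusted p = 1.37e-06) in tumors and 1.24 (SE 0.15, adjusted p = 8.65e-05) in spleens.

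Cdt1 and Gmnn are a loader and its inhibitor, geminin. They are set side by side after their values were seen, and whether they differ from each other was not tested. Cdt1, which delivers the Mcm ring to ORC, was at 66.6, 66.9, 65.6 and 62.7 CPM in tumor OX40minus and at 60.7, 87.7, 89.7 and 58.6 CPM in tumor OX40plus. Mice 2 and 3 were higher in OX40plus and mice 1 and 4 lower, and the difference was not called (log2 fold change 0.15, SE 0.13, adjusted p = 0.370). In spleens Cdt1 was at 61.0 ± 2.16 CPM in OX40minus and 75.3 ± 5.21 CPM in OX40plus without overlap, and higher in OX40plus in each of the 3 mice, and was not called (0.30, SE 0.15, adjusted p = 0.305). With only the spleen groups in the fit it passed (adjusted p = 0.0485, in a range of 0.0485 to 0.563 over 23 alternatives). Gmnn was at 61.4, 71.6, 61.9 and 54.8 CPM in tumor OX40minus and at 104, 116, 131 and 163 CPM in tumor OX40plus. These samples did not overlap, and Gmnn rose in tumors (1.03, SE 0.13, adjusted p = 2.13e-05) and in spleens (0.75, SE 0.15, adjusted p = 0.00510).

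The 5 measured subunits of the Mcm2 to Mcm7 helicase ring all rose with OX40 in both tissues. Mcm6 had the smallest adjusted p of the 46 genes in both. It was at 414, 488, 420 and 416 CPM in tumor OX40minus and at 858, 829, 877 and 823 CPM in tumor OX40plus (log2 fold change 0.97, SE 0.07, adjusted p = 1.55e-07). In spleens it was at 155, 147 and 132 CPM in OX40minus and at 246, 256 and 250 CPM in OX40plus (0.79, SE 0.09, adjusted p = 2.68e-05). The samples of each group lay close together relative to these gaps. Mcm5 rose by 1.22 (SE 0.10, adjusted p = 1.85e-07) in tumors, from 239 ± 23.9 to 557 ± 45.0 CPM, and by 0.99 (SE 0.11, adjusted p = 3.48e-05) in spleens, from 94.2 ± 7.97 to 187 ± 20.8 CPM. Mcm2 rose by 0.96 (SE 0.10) in tumors and 0.65 (SE 0.12) in spleens, and Mcm3 by 1.06 (SE 0.12) and 0.82 (SE 0.14). Mcm4 had the smallest differences of the ring, 0.69 (SE 0.09) in tumors and 0.44 (SE 0.10, adjusted p = 0.0124) in spleens. Its spleen call was lost without spleen OX40plus mouse 1 (adjusted p = 0.0537), without spleen OX40plus mouse 2 (0.0713) or without spleen OX40minus mouse 3 (0.0768). Orc6, the smallest ORC subunit, rose by 1.25 (SE 0.14, adjusted p = 5.36e-06) in tumors, from 35.4 ± 4.94 to 84.6 ± 14.3 CPM. In spleens it was close to the threshold (0.54, SE 0.16, adjusted p = 0.0489), and that call was lost in 14 of 23 alternative analyses. Among them were leaving out any of the 6 spleen samples, tumor OX40plus mouse 3 or tumor OX40minus mouse 1, 3 or 4 (adjusted p = 0.0545 to 0.218).

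**Figure D4:**
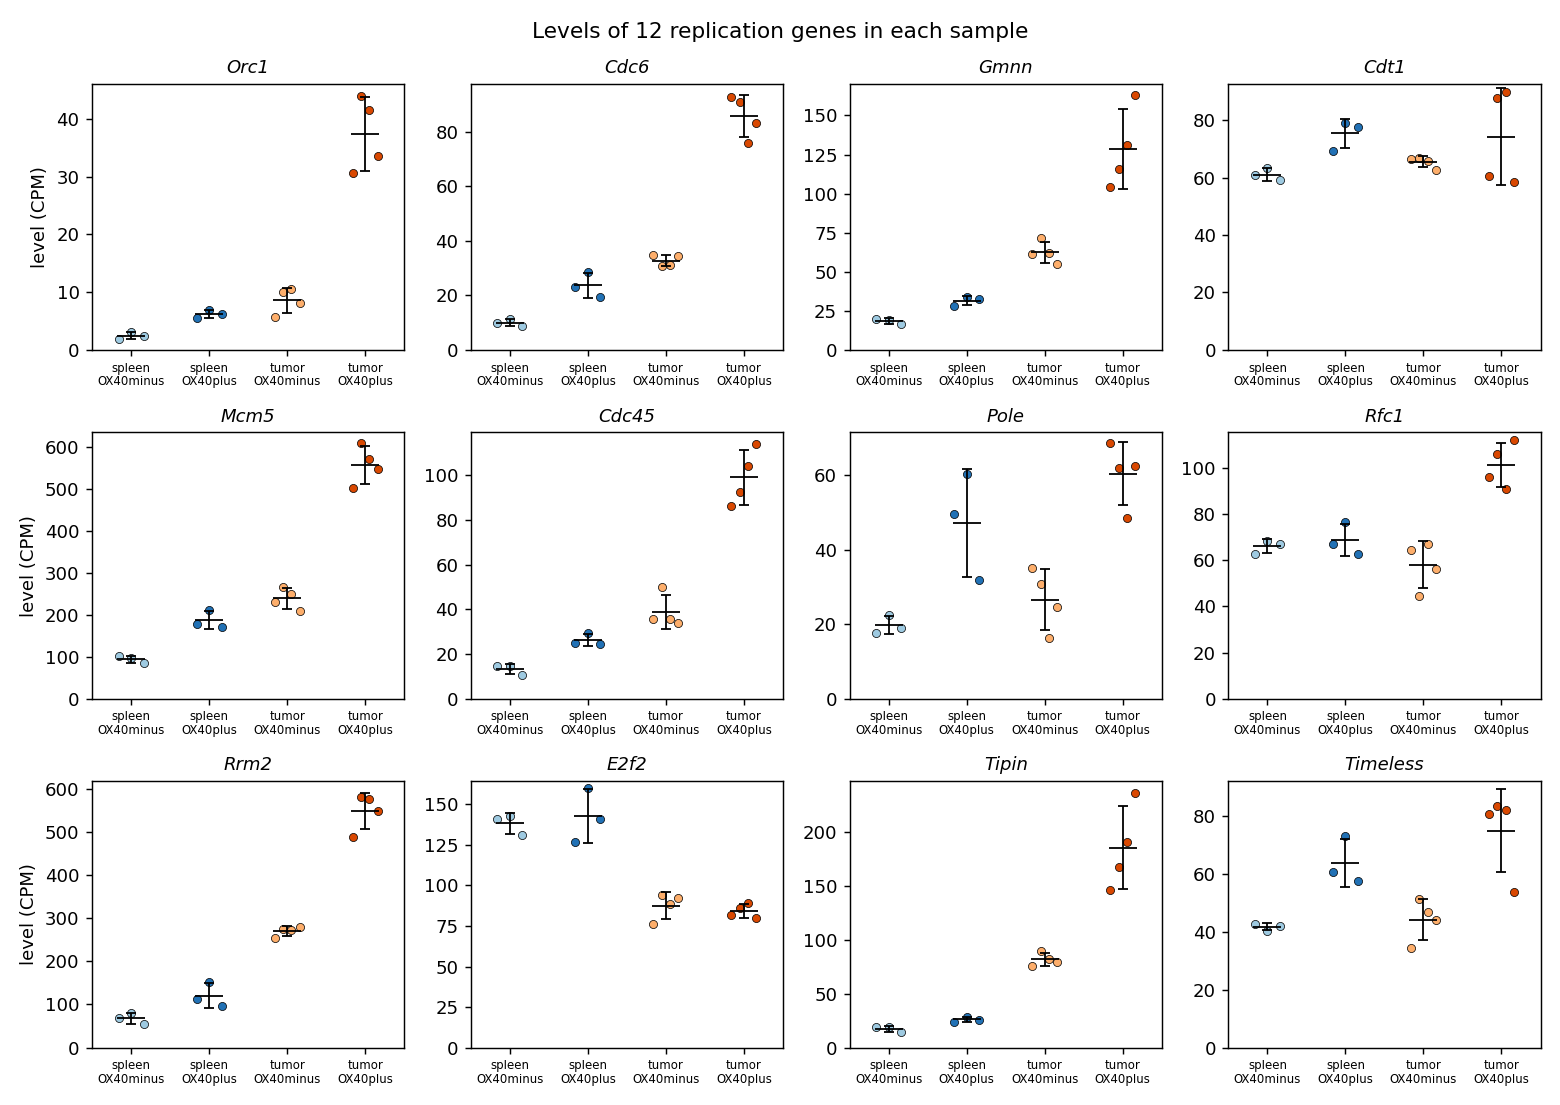
Levels in CPM (vertical axes, from 0) of 12 replication genes in every sample of the 4 groups; points are mice, long bars are means and whiskers are SDs. Orc1, Cdc6, Gmnn, Mcm5, Cdc45, Rrm2 and Tipin rise over the groups, whereas Cdt1 overlaps between the tumor gates and E2f2 is lower in tumors than in spleens.

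The genes that activate the helicase were all called higher in tumor OX40plus (7 of 7), and 3 of 7 were called in spleens. Cdc45, the helicase cofactor that travels with the Mcm ring, was at 35.5, 50.1, 35.5 and 33.9 CPM in tumor OX40minus and at 86.2, 92.4, 104 and 114 CPM in tumor OX40plus. It was at 14.7, 14.7 and 10.8 CPM in spleen OX40minus and at 24.9, 29.6 and 24.5 CPM in spleen OX40plus. Neither tissue showed overlap, and the log2 fold changes were 1.37 (SE 0.15, adjusted p = 4.26e-06) and 0.98 (SE 0.17, adjusted p = 0.00164). Mcm10, which helps to switch the helicase on, rose by 1.27 (SE 0.20) in tumors, from 24.7 ± 3.15 to 61.8 ± 19.3 CPM, with the OX40plus samples spread from 38.7 to 84.2 CPM. It rose by 1.12 (SE 0.24, adjusted p = 0.00642) in spleens, a call lost with limma-voom weights (adjusted p = 0.0552).

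The GINS subunits are given one by one, and whether they differ from each other was not tested. Gins1 rose by 1.5 (SE 0.21) in tumors and 1.14 (SE 0.25, adjusted p = 0.00763) in spleens, from 4.12 ± 0.431 to 9.19 ± 1.49 CPM in the latter. Gins3 rose in tumors (1.25, SE 0.19) and was not called in spleens (0.68, SE 0.22, adjusted p = 0.0698), although its 3 OX40plus samples, 15.4, 14.7 and 15.3 CPM, all exceeded the OX40minus samples, 10.7, 9.0 and 8.75 CPM. Without tumor OX40minus mouse 2 or 4, which enter the shared estimate of spread, it passed (adjusted p = 0.0158 and 0.0469). Gins4 rose by 0.57 (SE 0.12, adjusted p = 0.00185) in tumors, while in spleens it was at 37.1, 30.3 and 27.6 CPM in OX40minus and at 36.2, 29.6 and 35.4 CPM in OX40plus. The spleen samples of Gins4 overlapped (0.10, SE 0.14, adjusted p = 0.891).

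Cdc7 and Dbf4 form the kinase that fires licensed origins. Cdc7 was at 27.0, 31.5, 30.1 and 28.6 CPM in tumor OX40minus and at 59.0, 66.3, 54.7 and 60.1 CPM in tumor OX40plus (log2 fold change 1.03, SE 0.12, adjusted p = 1.04e-05). Dbf4 rose by 1.00 (SE 0.12, adjusted p = 1.26e-05), from 52.3 ± 5.81 to 105 ± 14.5 CPM. Both were thus near a doubling in tumors with no overlap. In spleens neither was called, at 0.45 (SE 0.14, adjusted p = 0.0707) for Cdc7 and 0.41 (SE 0.14, adjusted p = 0.0957) for Dbf4. Without spleen OX40plus mouse 3, Cdc7 passed (adjusted p = 0.0166).

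All 14 measured genes of polymerases, clamp loader and lagging strand processing rose with OX40 in tumors, and 10 of 14 rose in spleens. Rfc4, a subunit of the clamp loader that places the sliding clamp, was at 38.4, 38.6, 34.2 and 38.1 CPM in tumor OX40minus and at 86.3, 94.7, 98.8 and 134 CPM in tumor OX40plus. Mouse 4 was the highest and no sample overlapped (log2 fold change 1.45, SE 0.14, adjusted p = 1.05e-06). In spleens it rose from 10.4 ± 1.32 to 18.9 ± 1.28 CPM (0.87, SE 0.16, adjusted p = 0.00200). Rfc3, another loader subunit, rose by 1.20 (SE 0.15) in tumors and 0.80 (SE 0.18, adjusted p = 0.00924) in spleens. The spleen call of Rfc3 was lost with limma-voom weights (adjusted p = 0.0769) and without spleen OX40minus mouse 3 (0.0566).

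Fen1 and Lig1, the nuclease and the ligase that finish Okazaki fragments, rose in both tissues. Fen1 was at 122, 98.7, 108 and 91.0 CPM in tumor OX40minus and at 224, 240, 241 and 224 CPM in tumor OX40plus (log2 fold change 1.15, SE 0.11, adjusted p = 1.03e-06). In spleens it went from 38.2 ± 6.07 to 60.5 ± 3.55 CPM (0.67, SE 0.12, adjusted p = 0.00231). Lig1 was at 57.1, 62.8 and 51.3 CPM in spleen OX40minus and at 123, 144 and 121 CPM in spleen OX40plus (1.18, SE 0.13, adjusted p = 4.11e-05). Its tumor values went from 116 ± 18.4 to 272 ± 33.6 CPM (1.24, SE 0.12, adjusted p = 1.13e-06). Lig1 thus had nearly the same estimate in both tissues.

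Primase and polymerase alpha start each new strand. Prim1, the catalytic primase subunit, rose by 1.29 (SE 0.14) in tumors, from 41.5 ± 4.79 to 102 ± 17.6 CPM, and by 0.78 (SE 0.16, adjusted p = 0.00510) in spleens. Prim2, its partner, rose by 1.02 (SE 0.13) in tumors and by 0.53 (SE 0.15, adjusted p = 0.0408) in spleens, the spleen call being lost in 9 of 23 alternatives. These include leaving out spleen OX40plus mouse 1 or 2, spleen OX40minus mouse 2 or 3, tumor OX40plus mouse 3 or tumor OX40minus mouse 3 or 4 (adjusted p = 0.0514 to 0.213). Pola1, the catalytic subunit of polymerase alpha, rose in tumors (1.09, SE 0.18, adjusted p = 1.52e-04) and was at 17.3, 18.6 and 17.0 CPM in spleen OX40minus and 27.8, 34.2 and 22.9 CPM in spleen OX40plus. Those spleen samples did not overlap, but the difference was not called (0.66, SE 0.20, adjusted p = 0.0565). It passed under a block on mouse (adjusted p = 0.0295) and without spleen OX40plus mouse 3 (0.0344), tumor OX40plus mouse 1 (0.0322) or tumor OX40minus mouse 3 (0.0365).

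Pole, the catalytic subunit of the leading strand polymerase epsilon, was at 35.0, 30.7, 16.2 and 24.6 CPM in tumor OX40minus and at 68.6, 62.1, 48.5 and 62.4 CPM in tumor OX40plus. In spleens it was at 17.8, 22.6 and 19.0 CPM in OX40minus and at 49.5, 60.3 and 31.8 CPM in OX40plus. The gates separated in both tissues, with log2 fold changes of 1.23 (SE 0.23, adjusted p = 4.72e-04) and 1.21 (SE 0.26, adjusted p = 0.00714). Pole2, its second subunit, rose by 1.28 (SE 0.17) in tumors and by 0.83 (SE 0.20, adjusted p = 0.0141) in spleens. The spleen call of Pole2 was lost without spleen OX40plus mouse 2 (adjusted p = 0.0823) and without spleen OX40minus mouse 3 (0.0875). It was also lost with limma-voom weights (0.0506) and with the first library of each pair (0.0553).

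Pold1 and Pold2, the catalytic and a regulatory subunit of polymerase delta, rose in tumors by 0.83 (SE 0.11) and 0.97 (SE 0.10). In spleens Pold1 rose from 87.9 ± 2.58 to 126 ± 5.65 CPM (0.51, SE 0.13, adjusted p = 0.0177). That call was lost without mouse 2 or mouse 3 of either spleen gate (adjusted p = 0.0560 to 0.0677). Pold2 was at 52.6, 43.1 and 40.4 CPM in spleen OX40minus and at 53.8, 52.3 and 57.8 CPM in spleen OX40plus. The spleen samples overlapped and the difference was not called (0.27, SE 0.11, adjusted p = 0.178). Without spleen OX40minus mouse 1 it passed (adjusted p = 0.0486).

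Rpa1 and Rpa2 belong to the complex that coats single-stranded DNA. Rpa1 had the smallest called difference in tumors, 0.36 (SE 0.07, adjusted p = 6.32e-04), from 256 ± 10.7 to 329 ± 22.3 CPM, and was not called in spleens (0.05, SE 0.08, adjusted p = 0.897). Rpa2 rose by 0.92 (SE 0.10, adjusted p = 3.71e-06) in tumors, from 87.7 ± 6.60 to 165 ± 8.33 CPM. In spleens it rose by 0.41 (SE 0.11, adjusted p = 0.0327), a call lost under a block on mouse (adjusted p = 0.118) and without either gate of spleen mouse 2 or 3 (adjusted p = 0.0793 to 0.185). The spleen call of Rpa2 was also lost with limma-voom weights (adjusted p = 0.0604) and with the compared groups alone (0.0632). Rfc1, the large subunit of the clamp loader, was at 64.4, 44.7, 67.1 and 56.2 CPM in tumor OX40minus and at 95.9, 106, 90.9 and 112 CPM in tumor OX40plus (0.81, SE 0.12, adjusted p = 7.31e-05). In spleens its samples overlapped, at 62.9, 68.4 and 67.1 CPM in OX40minus and at 67.1, 76.4 and 62.7 CPM in OX40plus (0.05, SE 0.14, adjusted p = 0.963).

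The 4 genes of nucleotide supply rose in both tissues, and each call held in all 23 alternative analyses. Rrm2, the regulated subunit of ribonucleotide reductase, was at 254, 274, 272 and 280 CPM in tumor OX40minus and at 489, 580, 576 and 548 CPM in tumor OX40plus. It was at 67.9, 80.0 and 54.8 CPM in spleen OX40minus and at 112, 153 and 96.4 CPM in spleen OX40plus. The 4 groups were ordered without overlap, with log2 fold changes of 1.02 (SE 0.13, adjusted p = 1.91e-05) in tumors and 0.83 (SE 0.15, adjusted p = 0.00218) in spleens. Rrm1, the large subunit of the same enzyme, rose by 1.11 (SE 0.10, adjusted p = 8.81e-07) in tumors, from 250 ± 19.3 to 538 ± 45.7 CPM, and by 0.74 (SE 0.12, adjusted p = 7.44e-04) in spleens. Tk1, the S phase thymidine kinase, rose by 1.06 (SE 0.09, adjusted p = 5.03e-07) in tumors, from 81.1 ± 10.1 to 168 ± 9.63 CPM. In spleens it rose by 0.83 (SE 0.10, adjusted p = 1.03e-04), from 51.5 ± 2.24 to 91.7 ± 5.74 CPM. Tyms, thymidylate synthase, rose by 1.25 (SE 0.13) and 0.90 (SE 0.15). Chaf1b, a subunit of the factor that places histones behind the fork, rose by 0.62 (SE 0.11, adjusted p = 3.01e-04) in tumors, from 68.5 ± 6.26 to 105 ± 5.24 CPM. It rose by 0.61 (SE 0.12, adjusted p = 0.00503) in spleens, from 21.9 ± 3.28 to 33.2 ± 2.64 CPM.

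Of the E2F factors, 3 of 4 were called higher in tumor OX40plus and 1 of 4 in spleen OX40plus. The spleen estimates of E2f1, E2f7 and E2f8 were similar (0.91, 0.80 and 0.81), and that of E2f2 was 0.04. Whether the factors differ from each other was not tested. E2f1, an activator of S phase genes, was at 27.3, 34.6, 29.8 and 32.4 CPM in tumor OX40minus and at 49.5, 80.7, 61.4 and 51.9 CPM in tumor OX40plus (log2 fold change 0.95, SE 0.15, adjusted p = 1.15e-04). In spleens it rose from 15 ± 1.02 to 28.3 ± 3.32 CPM (0.91, SE 0.17, adjusted p = 0.00280). Neither tissue showed overlap for E2f1. E2f2, another activator, was at 76.1, 93.8, 88.3 and 92.3 CPM in tumor OX40minus and at 81.7, 86.3, 89.1 and 80.1 CPM in tumor OX40plus. It was at 141, 143 and 131 CPM in spleen OX40minus and at 127, 160 and 141 CPM in spleen OX40plus. The gates overlapped in both tissues and neither difference was called (-0.05, SE 0.09, adjusted p = 0.687 in tumors; 0.04, SE 0.10, adjusted p = 0.963 in spleens).

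E2f7 and E2f8 are repressors of the family, made during S phase. E2f7 was at 24.7, 30.2, 16.5 and 23.7 CPM in tumor OX40minus and at 52.7, 35.5, 42.2 and 24.9 CPM in tumor OX40plus, and mouse 4 of OX40plus lay within the OX40minus range. Its call in tumors (0.69, SE 0.25, adjusted p = 0.0407) was lost in 8 of 23 alternatives. These were library size alone (adjusted p = 0.0569) and leaving out spleen OX40plus mouse 1 or any tumor sample except OX40minus mouse 2 and OX40plus mouse 4 (0.0517 to 0.131). In spleens it was not called (0.80, SE 0.29, adjusted p = 0.125). E2f8 rose in tumors from 25.8 ± 7.44 to 50.8 ± 4.48 CPM (1.01, SE 0.22, adjusted p = 0.00197). Its spleen values, 16.8, 22.1 and 15.4 CPM in OX40minus and 30.7, 47.4 and 21.1 CPM in OX40plus, overlapped by mouse 3 of OX40plus and were not called (0.81, SE 0.26, adjusted p = 0.0708). Under a block on mouse the spleen difference of E2f8 passed (adjusted p = 0.0214), and it passed without spleen OX40plus mouse 3 (0.0121) or tumor OX40minus mouse 2 (0.0430).

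The 6 genes of fork protection and repair were called higher in OX40plus in both tissues. Exo1, a nuclease of repair and fork processing, was at 15.5, 17.2, 14.4 and 13.3 CPM in tumor OX40minus and at 47.6, 47.2, 43.6 and 51.1 CPM in tumor OX40plus (log2 fold change 1.65, SE 0.16, adjusted p = 1.46e-06). In spleens it was at 4.36, 5.56 and 4.83 CPM in OX40minus and at 12.5, 16.8 and 11 CPM in OX40plus, the largest spleen difference of the 46 genes (1.43, SE 0.18, adjusted p = 1.22e-04). The gates were far apart in both. Dtl, which marks Cdt1 for destruction in S phase, rose by 1.32 (SE 0.18, adjusted p = 3.14e-05) in tumors, from 58.6 ± 4.54 to 147 ± 22.1 CPM. It rose by 1.32 (SE 0.21, adjusted p = 6.94e-04) in spleens, from 11.1 ± 2.71 to 28.1 ± 8.72 CPM. Brca1, a factor of homologous recombination, rose by 1.66 (SE 0.21, adjusted p = 2.02e-05) in tumors, from 19.7 ± 4.85 to 61.4 ± 7.15 CPM. Its spleen difference (0.94, SE 0.25, adjusted p = 0.0258) was lost without either gate of spleen mouse 1 (adjusted p = 0.104 and 0.122), without spleen OX40plus mouse 2 (0.143) and without spleen OX40minus mouse 3 (0.0739). Clspn, the checkpoint adaptor claspin, rose by 0.75 (SE 0.18, adjusted p = 0.00413) in tumors and by 0.98 (SE 0.21, adjusted p = 0.00714) in spleens.

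Timeless and Tipin are partners in the complex that stabilises stalled forks. Tipin was at 76.2, 89.9, 81.9 and 79.6 CPM in tumor OX40minus and at 146, 168, 191 and 236 CPM in tumor OX40plus (log2 fold change 1.16, SE 0.14, adjusted p = 1.11e-05). Timeless was at 34.4, 51.4, 47.0 and 44.3 CPM in tumor OX40minus and at 80.9, 83.5, 82.2 and 53.7 CPM in tumor OX40plus (0.75, SE 0.15, adjusted p = 9.07e-04). Mouse 4 of tumor OX40plus was the highest for Tipin and the lowest for Timeless. In spleens both were at 0.60, with SE 0.16 and adjusted p = 0.0286 for Tipin and SE 0.17 and adjusted p = 0.0417 for Timeless. The spleen call of Timeless was lost in 12 of 23 alternatives. Among them were a block on mouse (adjusted p = 0.0597) and leaving out any spleen sample, tumor OX40plus mouse 3 or tumor OX40minus mouse 3 or 4 (0.0509 to 0.179). That of Tipin was lost in 5, among them leaving out spleen OX40minus mouse 3 or any spleen OX40plus sample (adjusted p = 0.0505 to 0.162).

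The count of 34 in spleens moved with single samples: it was 24 without spleen OX40minus mouse 3 and 25 without spleen OX40plus mouse 2. Of those 34 calls, 22 held in all 23 alternatives. Spleen OX40plus mouse 2 was the highest of its group for 37 of 46 genes, and spleen OX40minus mouse 3 the lowest of its group for 35. In tumors 43 of 44 calls held in all 23 alternatives, E2f7 being the exception.

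Replication genes were also higher in tumor Tregs than in spleen Tregs of the same gate. In OX40plus, 41 of 46 were called higher in tumors and 1 lower, with a median log2 fold change of 1.53, against 30.3% higher and 34.2% lower of all tested genes (median -0.13). In OX40minus, 37 were called higher and 1 lower (median 1.12), against 29.7% and 29.3% of all genes (median -0.03). E2f2 was the gene called lower in both gates, and 29 genes were called higher in all 4 comparisons of gate and tissue. The share of all genes called higher in all 4 was not computed. It cannot exceed the 4.39% called higher in spleen OX40plus. These 4 comparisons share samples, so their counts are not independent of one another.

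Markers of other cells differed between tissues too. Of 6 melanoma markers, 5 were called higher in tumors in each gate, and the other, Mitf, was called lower in tumors in OX40minus (-2.30) and was not called in OX40plus (0.68). Their sums were 12.6 to 22.4 CPM over the spleen samples and 69.3 to 184 over the tumor samples. B cell markers were called lower in tumors for 5 of 5, with sums of 393 to 584 CPM in spleens and 2.43 to 6.29 in tumors. Of 9 macrophage markers, 6 were called lower and 1 higher in tumors in OX40plus, and 7 lower in OX40minus. Natural killer cell markers were called lower in tumors for 3 of 3 in OX40plus and 2 of 3 in OX40minus. Of 5 dendritic cell markers, 1 was called higher in tumors in OX40plus and 3 in OX40minus. Erythroid markers summed to 4.64 to 16 CPM in spleens and 35.2 to 166 in tumors, with 2 of 4 called higher in OX40plus and 3 of 4 in OX40minus. Of the CD8 T cell markers, Cd8b1 was called higher in tumors in both gates and Cd8a lower in OX40plus. The part of these markers in the tissue difference of the replication genes was not tested.

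The widest tissue differences in OX40plus belonged to Tipin, Orc1, Rfc4 and Dtl. Tipin was at 19.3, 18.8 and 14.1 CPM in spleen OX40minus, 24.0, 28.8 and 26.0 in spleen OX40plus, and no less than 76.2 in any tumor sample. Its tissue difference was 2.80 (SE 0.15, adjusted p = 1.92e-10) in OX40plus and 2.24 (SE 0.15, adjusted p = 3.43e-09) in OX40minus. Timeless, its partner, was not called in either gate (0.22, SE 0.16, adjusted p = 0.249; 0.07, SE 0.16, adjusted p = 0.734). Without tumor OX40plus mouse 4 the first of these passed (adjusted p = 0.0247). Orc1 differed by 2.56 (SE 0.25) in OX40plus and 1.78 (SE 0.25) in OX40minus, Rfc4 by 2.43 (SE 0.15) and 1.85 (SE 0.15), and Dtl by 2.42 (SE 0.19) in each gate.

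Of the subunits of polymerase epsilon, Pole2 was higher in tumors by 1.43 (SE 0.19, adjusted p = 4.96e-06) in OX40plus and 0.98 (SE 0.19, adjusted p = 2.65e-04) in OX40minus. Pole overlapped between tissues in both gates and was not called (0.39, SE 0.24, adjusted p = 0.17; 0.38, SE 0.24, adjusted p = 0.198). Without tumor OX40minus mouse 3, the lowest of its group, the second passed (adjusted p = 0.0272). Whether Pole2 and Pole, or Tipin and Timeless, differ from each other was not tested.

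Of the licensing genes, Gmnn was higher in tumors by 2.01 (SE 0.14, adjusted p = 4.97e-09) in OX40plus and by 1.74 (SE 0.14, adjusted p = 3.83e-08) in OX40minus. Cdt1 was not called in either gate (-0.05, SE 0.14, adjusted p = 0.775; 0.10, SE 0.14, adjusted p = 0.547), and its 4 group means lay between 61.0 and 75.3 CPM. Cdc6 was higher by 1.87 (SE 0.14) and 1.73 (SE 0.14), Mcm2 by 1.57 (SE 0.11) and 1.25 (SE 0.11), and Rrm2 by 2.21 (SE 0.14) and 2.01 (SE 0.14).

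Among the E2F factors, E2f2 went the other way from its relatives. It was at 143 ± 16.5 CPM in spleen OX40plus and 84.3 ± 4.14 CPM in tumor OX40plus (log2 fold change -0.75, SE 0.10, adjusted p = 4.47e-06). In OX40minus it was at 138 ± 6.40 CPM in spleens and 87.6 ± 8.02 CPM in tumors (-0.66, SE 0.10, adjusted p = 2.33e-05). No tumor sample reached the lowest spleen sample. E2f1 was higher in tumors by 1.08 (SE 0.16, adjusted p = 1.89e-05) and 1.04 (SE 0.16, adjusted p = 3.71e-05), and E2f7 by 1.51 (SE 0.27) and 1.62 (SE 0.27). E2f8 was called in OX40plus (0.70, SE 0.24, adjusted p = 0.0184), lost without spleen OX40plus mouse 1 (adjusted p = 0.0506) or mouse 3 (0.138), and was not called in OX40minus (0.49, SE 0.24, adjusted p = 0.0909). The latter passed without spleen OX40plus mouse 2 (adjusted p = 0.0498) and under a block on mouse number across tissues (0.0224). The labels do not say whether a tumor mouse and a spleen mouse of the same number are one animal, so this block is not a paired analysis by design.

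Clspn was not called between tissues in either gate (-0.05, SE 0.20, adjusted p = 0.833; 0.18, SE 0.20, adjusted p = 0.448). The remaining genes not called in OX40minus were Pold1 (0.15, SE 0.12, adjusted p = 0.288), Rfc1 (-0.20, SE 0.13, adjusted p = 0.194) and Brca1 (0.52, SE 0.23, adjusted p = 0.0626). Each of these 3 was called higher in OX40plus, where tumor and spleen samples did not overlap. Brca1 passed in OX40minus under the same block on mouse number across tissues, which need not tie samples of one animal (adjusted p = 0.0347), and without tumor OX40minus mouse 1, spleen OX40minus mouse 2 or spleen OX40plus mouse 3 (0.0300 to 0.0374). Cdc7 was called in OX40minus at 0.34 (SE 0.13, adjusted p = 0.0366), and this call was lost in 10 of 23 alternatives. These include leaving out any spleen OX40minus sample or tumor OX40minus mouse 2, 3 or 4 (adjusted p = 0.0515 to 0.0944).

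**Figure D5:**
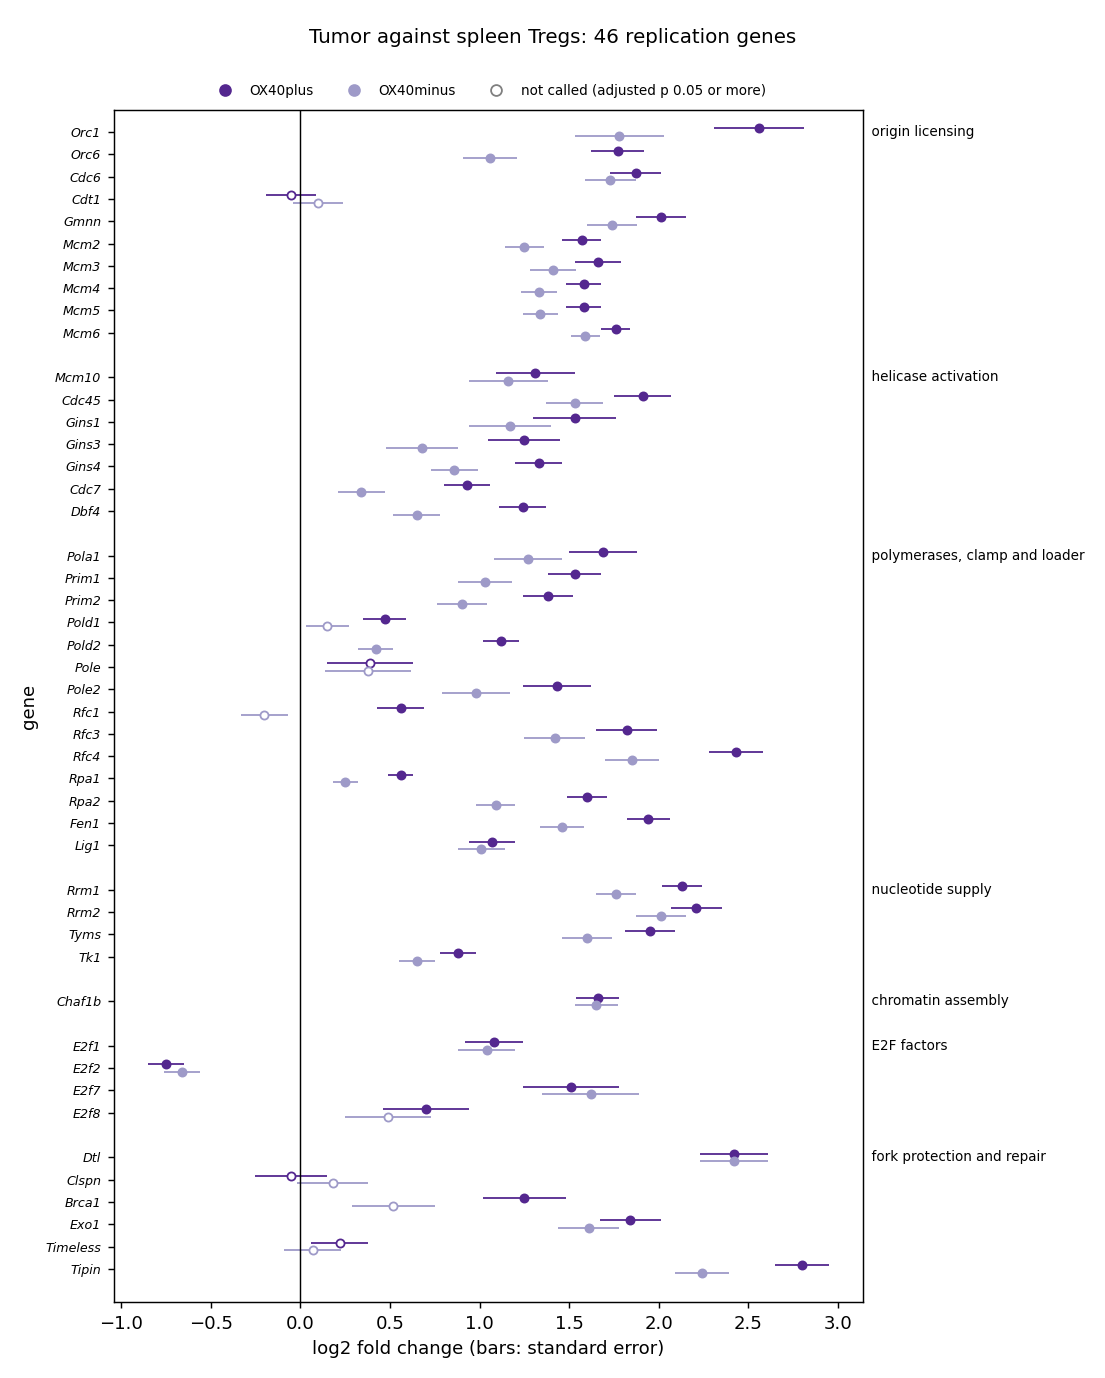
Log2 fold change of tumor over spleen (horizontal axis, bars are SEs) for the 46 genes by role, in OX40plus (dark) and OX40minus (light); open points were not called. Tipin reaches 2.80 in OX40plus, E2f2 is below 0 in both gates, and Cdt1, Pole, Clspn and Timeless are open in both.

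For 34 of 46 genes the group means rose from spleen OX40minus over spleen OX40plus and tumor OX40minus to tumor OX40plus, an order shown by 15.9% of all tested genes. The 12 others were Cdt1, Cdc7, Pold1, Pole, Rfc1, Lig1, Tk1, E2f2, E2f8, Clspn, Brca1 and Timeless. The middle groups, which differ in both tissue and gate, were close for many genes. All tumor OX40minus samples lay above all spleen OX40plus samples for 20 genes (29.5% of all genes), all lay below for 5 genes (30.8%), and 21 overlapped. The 5 were Cdt1, Pold1, E2f2, Clspn and Timeless. Clspn, for instance, was at 34.8, 50.3 and 27.9 CPM in spleen OX40plus and at 21.5, 22.4, 18.8 and 21.5 CPM in tumor OX40minus. No model comparison was made between these groups.

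The OX40 difference was tested for whether it differed between tissues. The estimate was larger in tumors for 42 of 46 genes (median difference 0.31 on the log2 scale, -0.06 over all genes), and limma called 4 with a larger difference in tumors and 0 with a smaller, against 4.53% and 6.38% of all genes. An unadjusted p under 0.05 was found for 16 of 46, and for 25.5% of all genes; 0 of the 16 had a smaller difference in tumors, and limma-voom called 0 smaller. So 10 genes called in tumors and not in spleens are not thereby shown to differ between tissues.

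Pold2 and Rfc1 were called in each of 22 alternatives. The OX40 difference of Pold2 was 0.97 in tumors and 0.27 in spleens, a difference of 0.70 (SE 0.15, adjusted p = 0.00651; 0.00420 to 0.0309 over the alternatives). For Rfc1 it was 0.81 in tumors and 0.05 in spleens, a difference of 0.76 (SE 0.18, adjusted p = 0.0151; 0.0111 to 0.0473). In both genes the tumor gates separated fully and the spleen gates overlapped. Orc6 (0.71, SE 0.21, adjusted p = 0.0433) and Rpa2 (0.51, SE 0.15, adjusted p = 0.0403) were less stable: a block on mouse gave them 0.121 and 0.115, which leaves 2 calls. Orc6 was lost in 14 of 22 alternatives and Rpa2 in 10, with the highest values without spleen OX40plus mouse 1 (adjusted p = 0.130 and 0.125). The count of 4 became 2 without that sample, without spleen OX40minus mouse 1 or 2 or without tumor OX40minus mouse 4, and 7 without tumor OX40plus mouse 1. Cdc7 (0.59, SE 0.19, adjusted p = 0.0582) and Dbf4 (0.59, SE 0.19, adjusted p = 0.0548), the 2 parts of one kinase, were just outside the threshold. Without spleen OX40plus mouse 2 both passed (adjusted p = 0.0177 and 0.0289), and Dbf4 also passed without mouse 3 of either tumor gate (0.0475 and 0.0477).

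Other genes of the pathway, 47 tested of 52 listed, moved in the same direction with exceptions. In tumors 37 of 47 were called higher in OX40plus and 3 lower (median 0.64), and in spleens 16 higher and 1 lower (median 0.33). Between tissues 36 were called higher in tumors and 3 lower in OX40plus, and 32 and 3 in OX40minus. Ccne2, an S phase cyclin, rose from 29.9 ± 9.88 to 65.4 ± 10.7 CPM in tumor OX40plus (1.17, adjusted p = 0.00121). Chek1, the kinase that guards stalled forks, rose by 1.36 (adjusted p = 4.14e-04) in tumors and 1.44 (adjusted p = 0.00403) in spleens. Tfdp1, the dimer partner of E2F proteins, rose from 143 ± 7.59 to 314 ± 15.2 CPM in tumors (1.13, adjusted p = 9.74e-08).

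The 3 lower in tumor OX40plus were Samhd1, Donson and Rbl2. Samhd1, an enzyme that breaks down deoxynucleotides and so opposes nucleotide supply, was at 2348 ± 230 CPM in spleen OX40minus, 1597 ± 127 in spleen OX40plus, 1809 ± 116 in tumor OX40minus and 731 ± 37.4 in tumor OX40plus. It fell by 1.31 (adjusted p = 4.23e-08) in tumors and by 0.55 (adjusted p = 0.00215) in spleens on the log2 scale, and these differed (-0.75, adjusted p = 0.00222). Macrophage markers fell in the same comparisons, as given above, and their part in the Samhd1 values was not tested. Donson, a replisome factor, fell by 1.10 (adjusted p = 0.00262) and Rbl2, a pocket protein of resting cells, by 0.33 (adjusted p = 0.0286) in tumors.

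Mitosis genes, from the next phase of the cycle, rose beside them. All 23 tested were called higher in tumor OX40plus (median 1.33) and 19 in spleen OX40plus (median 0.79). Their summed level was 860 to 1119 CPM in spleen OX40minus, 1285 to 2181 in spleen OX40plus, 1726 to 2197 in tumor OX40minus and 4331 to 4865 in tumor OX40plus. Unlike the sum of the replication genes, the middle groups overlapped. Mki67, the gene of the Ki-67 proliferation marker, rose with OX40 in tumors (1.05, adjusted p = 7.25e-04) but was lower in tumor OX40minus than in spleen OX40minus (-0.55, adjusted p = 0.0398), while the other 22 were called higher there.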

How the data were processed

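RNA was sequenced from 28 libraries of sorted Tregs, 2 per mouse and gate. The deposited values, in a table whose name says counts, are log2 CPM; their low end shows that 0.5 had been added per count. Per the submitters' processing notes the authors used bcl2fastq 2.19, kallisto and limma with the mouse build mm10. For the gene summary, the scaling factor and strand, the method is not given in the sources used here. Each library's minimum gave an effective size and from it estimated counts, of which 46.6% to 51.2% per library were whole within 0.01.

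Libraries of one mouse and gate differed by about sampling noise (median chi-square per gene 0.495 to 0.578 over 14 pairs, and 1.43 to 12.8 over 18 pairs of different mice of a group). Each pair was averaged and counted as 1 sample, giving 14. Replicates are mice per the titles.

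A limma linear model (3.58.1, R 4.3.3) with 1 term per group, empirical Bayes and a mean-variance trend was fitted to 12509 genes (15 or more estimated counts in total, and 0.382 CPM or more in 3 or more samples) and was tested on simulated data. Fold changes are on the log2 scale with 0.5 added per count and understate changes of genes near 0. Alternatives were other scalings, filters, a pseudocount of 1 CPM, voom weights, the compared groups alone, the first library of each pair, a mouse block and each sample left out. A block across tissues was added after seeing the data; whether a number marks the same animal in both tissues is not stated, and deviations correlated across tissues by -0.0348 to 0.0422.

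Per the titles the 2 gates of a tissue share mouse numbers and so come from the same animals. Deviations from group means correlated between gates by -0.108 to 0.0602 in tumors and -0.162 to 0.112 in spleens.

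The replication genes, the other lists and the tests were chosen with earlier results of these data known. Genes named by rule were the 2 of each role with the smallest adjusted p per OX40 comparison, those not called there or called lower anywhere, those called in the test between tissues, and Pcna, Cdc6, Cdt1, Gmnn, Orc1, E2f1, Mcm2 and Rrm2. The other genes with values were chosen after these were seen. Promoter sequences are from RefSeq (GRCm38.p6). For 42 of 50 windows of the listed genes, the last bases were found near the start of an annotated transcript. This does not place the window start at that transcript start.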

Additional observations from a re-analysis of the deposited data

Results flagged for a closer look

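In 6 of 92 groups of 4 tumor samples, 1 mouse stood apart from the other 3. Chance gives about 1 in 20 groups, and the count is near that. The groups are genes measured in the same samples, so they are not independent and the count is not a test. Mcm6 was at 488 CPM in tumor OX40minus mouse 2, with 414 to 420 in the others. Cdc45 was at 50.1 CPM in the same sample, with 33.9 to 35.5 in the others, and E2f8 at 36.8 CPM, with 21.3 to 23.8. This sample was the highest of its group for 30 of 46 replication genes. Mcm10 was at 29.4 CPM in tumor OX40minus mouse 1, with 22.9 to 23.4 in the others. Rfc4 was at 34.2 CPM in tumor OX40minus mouse 3, below 38.1 to 38.6. Timeless was at 53.7 CPM in tumor OX40plus mouse 4, below 80.9 to 83.5.

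The OX40 difference in tumors exceeded that in spleens for 4 genes by the interaction term. The excess on the log2 scale was 0.71 for Orc6, 0.70 for Pold2, 0.76 for Rfc1 and 0.51 for Rpa2.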

How the results depend on the processing

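No called replication gene changed direction in any alternative. The count of genes called higher stayed at 43 to 44 in the tumor OX40 comparison, 24 to 36 in spleens, 40 to 42 between tissues in OX40plus and 36 to 39 in OX40minus. The 4 genes whose OX40 difference differed between tissues became 2 with the mouse as a replicate block and 8 with relative log expression factors, and leaving out 1 sample gave 2 to 7. In the spleen comparison the block lost Orc6 (adjusted p = 0.151), Rpa2 (0.118) and Timeless (0.0597) and gained Pola1 (0.0295) and E2f8 (0.0214). Between tissues in OX40minus, a block on the mouse number across tissues, where the same number need not mean the same animal, gained E2f8 (0.0224) and Brca1 (0.0347), and the block changed no other call. The number of all genes called in spleens, 999, became 1850 with the compared groups alone, 641 without spleen OX40plus mouse 1 and 649 without spleen OX40minus mouse 2. That of the test between tissues, 1365, became 766 and 828 without these 2 samples. The median of the replication genes between tissues in OX40plus, 1.53, was 1.43 with library size alone and 1.62 without spleen OX40plus mouse 2. Apart from the alternatives that leave out samples, the cause was not tested.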
